A study of Mus musculus with 28 samples.

Results

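Genes that carry insulin and adiponectin signals into the cell were followed through the kidneys of diabetic and control mice. They were the insulin receptor Insr, its relative Igf1r, the docking proteins Irs1 and Irs2, the phosphoinositide 3-kinase subunit Pik3r1, the kinase Akt2, the transcription factors Foxo1 and Foxo3, and the adiponectin receptors Adipor1 and Adipor2. The rows were chosen by gene symbol, and 10 of the 14845 genes in the deposited table matched. The data are bulk RNA-seq of total RNA from whole kidneys of male mice, in 28 libraries. Per the labels the diabetic groups were db/db mice with 1 kidney removed (uninephrectomy, Unx), with 12 libraries at 26 weeks and 5 at 35 weeks. The controls were db/m mice with both kidneys intact, with 5 libraries at 26 weeks and 6 at 35 weeks. The db allele disrupts the long form of the leptin receptor, so db/db mice become obese and diabetic, while db/m mice carry 1 such allele. Genotype and surgery were changed together in the study and cannot be told apart. The labels name no sequencing batch, so age and any batch tied to it cannot be told apart either. The labels do not say whether each library came from a separate animal, so p-values measure the spread between libraries.

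Insulin binds the insulin receptor, which phosphorylates the IRS docking proteins, and these recruit phosphoinositide 3-kinase through its regulatory subunit. The lipid made by that kinase activates AKT, and AKT phosphorylates the FOXO transcription factors and keeps them out of the nucleus, so that FOXO targets such as gluconeogenic genes are transcribed when insulin action is low. Adiponectin, a hormone of fat tissue, acts through its own receptors on AMP-activated protein kinase (AMPK) and on ceramide breakdown. In the kidney, the proximal tubule makes glucose under insulin's restraint, and podocytes also respond to insulin.

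Values are the authors' scaled expression values, in which 1 read was worth 0.0295 to 0.0447 units depending on the library, and the estimated depth was 21.8 to 30.8 M reads (M, mega). Differences are log2 differences of value + 1 with their standard error (SE), adjusted p-values are from limma with Benjamini-Hochberg adjustment over 13495 genes, and “called” means an adjusted p below 0.05. Within groups, libraries correlated at 0.966 to 0.990 across genes. On the second principal component, with 9.17% of the variance, db/db Unx 35-week replicates 3, 5 and 6 scored 42.8, 26.7 and 20.1, and the other 25 libraries scored between -17.4 and 9.21. The summed macrophage and monocyte markers were 591, 515 and 502 in those 3 libraries, 249 and 156 in the other two db/db Unx libraries of that age, and 137 to 225 in the db/m libraries of 35 weeks. For the called genes of the 10, results at 35 weeks are therefore also given without those 3 libraries. Only db/db Unx replicates 1 and 2 were then left at that age, and 17.8% of all genes were called in place of 32.3%. The part of the smaller group in a lost call was not tested. All 12 proximal tubule markers checked were detected in every group, with overlapping sums in db/db Unx and db/m kidneys.

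In db/db Unx kidneys at 26 weeks, 5 of the 10 genes were higher than in db/m (Insr, Igf1r, Pik3r1, Foxo1 and Foxo3) and Adipor1 was lower. Of all genes tested, 34.9% were called in that comparison, 17.2% higher and 17.7% lower. At 35 weeks 4 genes were higher (Insr, Pik3r1, Foxo1 and Foxo3) and Adipor1 was again lower, against 32.3% of all genes called, 15.9% higher and 16.4% lower. The median log2 difference over the 10 genes was 0.24 at 26 weeks and 0.06 at 35 weeks, and over all genes it was 0.02 and 0.01. Irs1, Irs2, Akt2 and Adipor2 passed the test at neither age. In whole-kidney RNA, fewer cells of a type and less RNA per cell cannot be told apart.

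**Figure D1:**
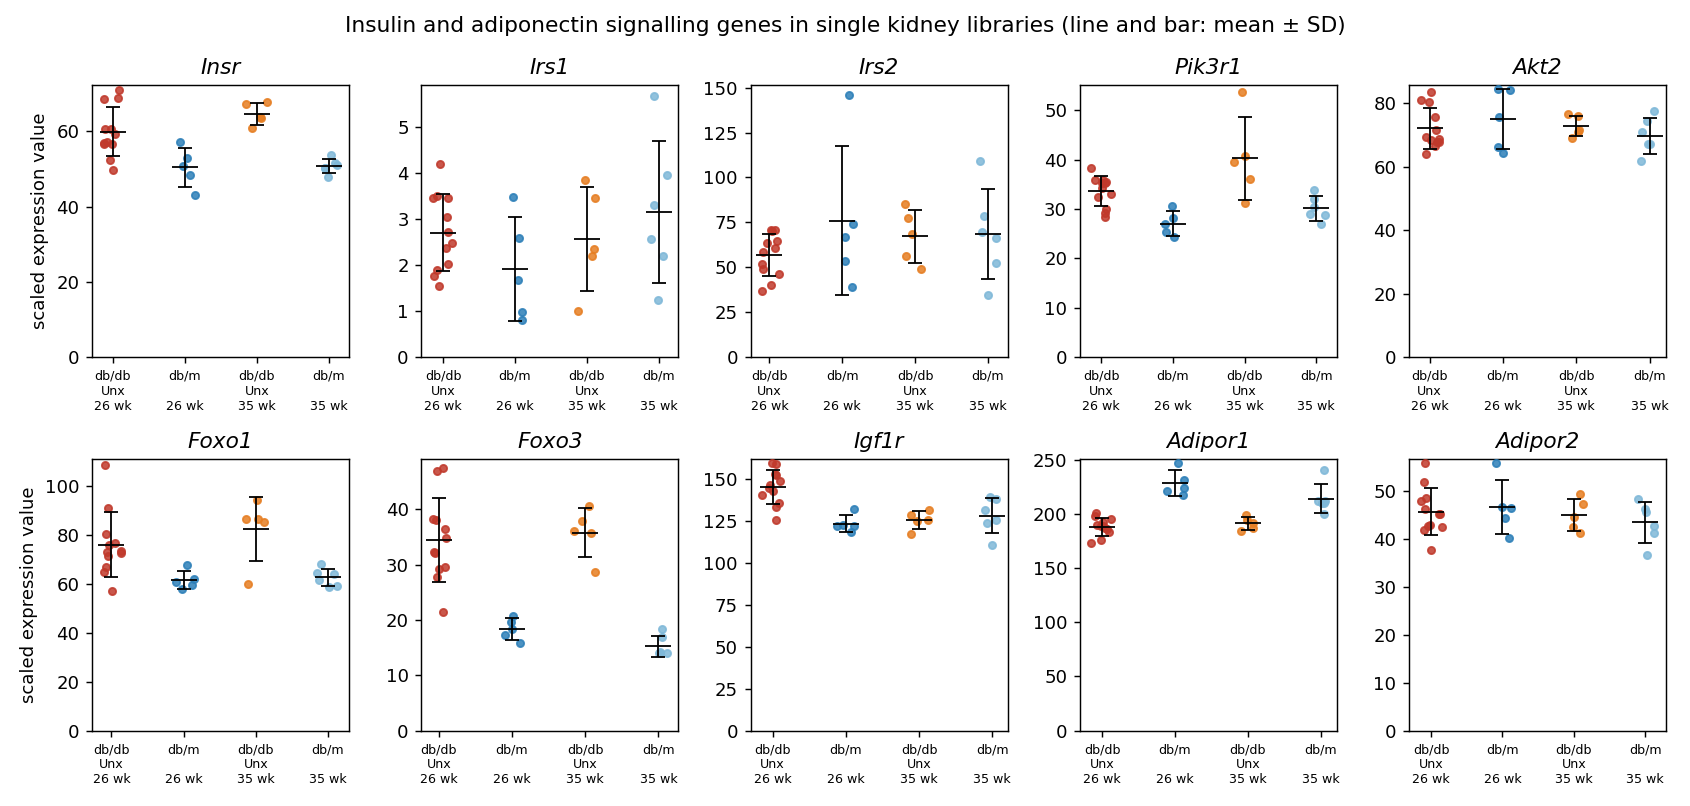
Scaled expression value (vertical axis, from 0) of each of the 10 genes in every library, with db/db Unx left of db/m at 26 and at 35 weeks; points are libraries, and the line and bar are the mean ± SD. Foxo3 in db/db Unx kidneys lies above all db/m kidneys at both ages, Adipor1 lies below them, and Irs2 spreads widest in db/m kidneys of 26 weeks, between 39.2 and 146.

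Levels between genes can be set side by side only per length, so the values were divided by the kilobases (kb) of annotated exon. Adipor1 was the most abundant, at 37.4 ± 1.63 per kb in db/db Unx and 45.4 ± 2.33 per kb in db/m kidneys of 26 weeks (SD, n = 12 and 5). Its libraries did not overlap with those of any other of the 10 genes. Irs2, Akt2, Foxo1, Igf1r and Adipor2 formed a middle group with group means between 7.11 and 12.0 per kb, in which neighbours overlapped except Akt2 and Igf1r in db/m kidneys of 35 weeks. Insr, Foxo3 and Pik3r1 lay lower. Foxo3 and Insr had like levels in db/db Unx kidneys, at 4.56 ± 1.00 and 4.36 ± 0.476 per kb at 26 weeks, whereas in db/m kidneys of 26 weeks they had 2.42 ± 0.258 and 3.67 ± 0.382 per kb. Irs1 was the lowest, at 0.296 ± 0.0911 per kb in db/db Unx and 0.209 ± 0.124 per kb in db/m kidneys of 26 weeks. Irs2 exceeded Irs1 in every library. With the longest transcript as the length, 3 of the 10 genes kept their place in the order, and Adipor1 stayed first and Irs1 last.

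**Figure D2:**
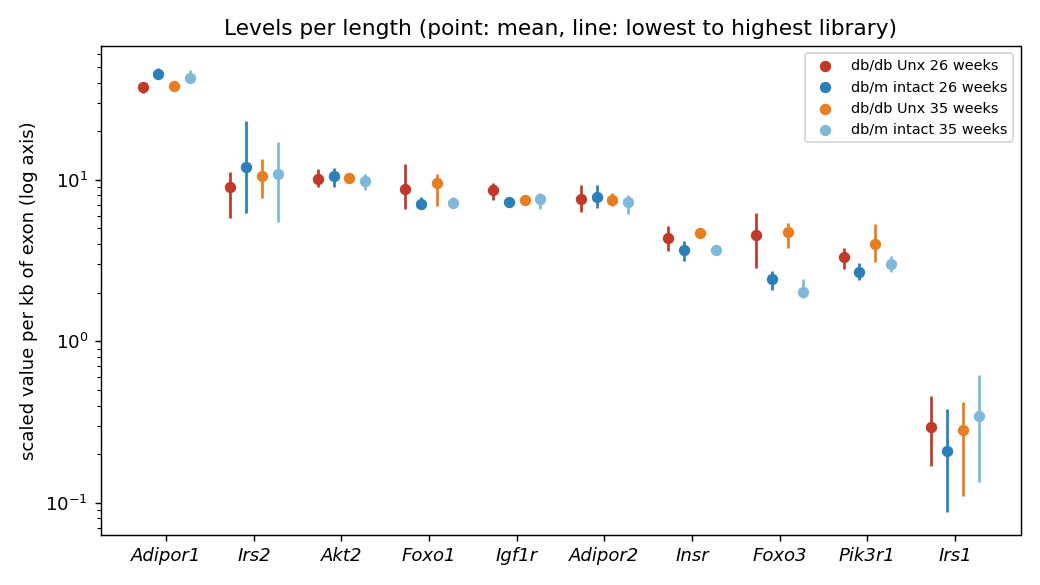
Scaled value per kb of exon (vertical log axis) for the 10 genes in order of level, with the mean as a point and the lowest to highest library as a line, for the 4 groups named in the legend. Adipor1 stands above and Irs1 below the other genes in all groups, and Foxo3 is the gene whose db/db Unx and db/m points lie farthest apart among those called.

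The receptors came first in the pathway. Insr, which encodes the insulin receptor (chr8:3122061-3279617 in GRCm38, minus strand), had 49.8, 58.3 and 71.0 units as lowest, median and highest value in db/db Unx kidneys of 26 weeks, against 50.8, 52.9, 48.4, 43.0 and 57.1 units in db/m kidneys. The groups overlapped, and the highest db/m library lay above 5 of the 12 db/db Unx libraries. In limma the log2 difference was 0.24 ± 0.07 (SE), with an adjusted p of 0.00521. At 35 weeks Insr had 64.0, 63.6, 60.9, 67.3 and 67.9 units in db/db Unx kidneys, against 50.2, 50.4, 51.1, 53.8, 47.8 and 51.6 units in db/m kidneys. Every db/db Unx library lay above every db/m library, which 18.1% of all genes showed in one direction or the other at that age (7.84% with db/db Unx higher). The difference was 0.34 ± 0.08, with a limma adjusted p of 0.000657, and 0.32 ± 0.11 (adjusted p = 0.0339) without replicates 3, 5 and 6.

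Igf1r, the receptor for insulin-like growth factors (chr7:67952827-68233668, plus strand), differed at 26 weeks and not detectably at 35 weeks. At 26 weeks its lowest, median and highest values were 125.5, 145 and 159 units in db/db Unx kidneys, against 122.5, 118, 122, 132 and 122 units in db/m kidneys. All db/db Unx libraries but the lowest lay above the highest db/m library. Its log2 difference was 0.23 ± 0.05, with a limma adjusted p of 0.000753. At 35 weeks it had 131, 128, 117, 125 and 125 units in db/db Unx kidneys, against 124, 139, 138, 131, 111 and 125.5 units in db/m kidneys. The groups lay within one another, with a difference of -0.03 ± 0.06, a 95% interval of -0.15 to 0.09 and a limma adjusted p of 0.769. The difference between the differences of the ages was -0.26 ± 0.08, with an unadjusted p of 0.00291 and an adjusted p of 0.121 in limma, so the change of the Igf1r difference with age did not pass the correction.

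The ratio of Insr to Igf1r within a library was 0.517 ± 0.0246 in db/db Unx and 0.399 ± 0.0265 in db/m kidneys of 35 weeks (SD, n = 5 and 6). The ranges, 0.488 to 0.544 and 0.363 to 0.432, did not overlap. At 26 weeks the ratio was 0.415 ± 0.0511 in db/db Unx and 0.411 ± 0.0548 in db/m kidneys, with ranges that overlapped nearly in full. These ratios are of scaled values, not of levels per length.

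The docking proteins varied most between db/m libraries of 1 age. The windows just before the starts of Irs1 and Irs2 are shown because they share a pair of motifs that no other of the matched promoters held. The letters are of RefSeq GRCm38.p6, 5′ to 3′ on each gene's own strand (minus for both), and lie at chr1:82291440-82291689 for Irs1 and chr8:11008930-11009179 for Irs2. Capitals mark the E-box CACGTG and the insulin response element TGTTTTG, which stand together in both genes, and Irs1 holds a second TGTTTTG nearer the start.
Irs1: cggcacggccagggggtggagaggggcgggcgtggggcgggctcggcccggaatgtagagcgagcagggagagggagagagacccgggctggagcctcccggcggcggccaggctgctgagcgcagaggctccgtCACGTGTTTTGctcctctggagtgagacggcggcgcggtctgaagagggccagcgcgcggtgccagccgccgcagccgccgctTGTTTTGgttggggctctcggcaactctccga
Irs2: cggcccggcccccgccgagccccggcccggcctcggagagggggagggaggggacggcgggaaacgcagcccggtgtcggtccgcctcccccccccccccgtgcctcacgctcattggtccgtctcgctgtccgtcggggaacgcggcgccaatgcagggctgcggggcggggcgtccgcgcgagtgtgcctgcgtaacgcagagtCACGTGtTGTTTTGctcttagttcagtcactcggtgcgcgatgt
In the 32851 RefSeq promoter windows of 300 bases (250 before the start and 50 after it, both strands searched), TGTTTTG occurred in 6.28% and CACGTG in 7.15%. A promoter window was matched for 9 of the 10 genes, with 14 windows in all, and of these genes Irs1 and Irs2 held each motif. The FOXO motif TGTTTAC, found in 3.65% of windows, occurred in windows of Adipor1 and Adipor2, and the cyclic AMP element TGACGTCA, found in 1.79%, in none. A match describes letters and does not show that a factor binds.

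Irs1 (chr1:82233101-82291416, minus strand) couples the receptor to phosphoinositide 3-kinase. It had 1.55, 2.61 and 4.20 units as lowest, median and highest value in db/db Unx kidneys of 26 weeks, against 0.796, 1.68, 2.60, 0.977 and 3.49 units in db/m kidneys. At 35 weeks it had 2.20, 3.47, 1.00, 2.35 and 3.86 units in db/db Unx kidneys, against 1.24, 2.56, 2.21, 5.68, 3.96 and 3.30 units in db/m kidneys. The groups overlapped at both ages, and db/m libraries of 1 age differed by several fold. Irs1 had a log2 difference of 0.40 ± 0.23 at 26 weeks (95% interval -0.05 to 0.86, limma adjusted p = 0.169) and -0.20 ± 0.26 at 35 weeks (95% interval -0.72 to 0.32, limma adjusted p = 0.604).

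Irs2 (chr8:10984681-11008458, minus strand), the docking protein that insulin-responsive tissues such as liver tune with feeding, spread over 36.8, 59.5 and 70.7 units as lowest, median and highest value in db/db Unx kidneys of 26 weeks. The db/m kidneys of that age had 39.2, 66.7, 53.2, 74.3 and 146 units. At 35 weeks Irs2 had 48.8, 85, 68.7, 56.3 and 77.5 units in db/db Unx kidneys, against 69.4, 66.4, 109, 78.3, 34.7 and 52.2 units in db/m kidneys. A single db/m library stood high at each age, and the groups overlapped. The coefficient of variation was 20.9% in db/db Unx and 54.6% in db/m kidneys of 26 weeks, and 22.1% and 36.8% in db/db Unx and db/m kidneys of 35 weeks. For Irs2 the log2 difference was -0.30 ± 0.24 at 26 weeks (95% interval -0.79 to 0.20, limma adjusted p = 0.368) and 0.03 ± 0.27 at 35 weeks (95% interval -0.53 to 0.60, limma adjusted p = 0.950). The intervals of both docking proteins include changes larger than those called for the receptors.

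Pik3r1 (chr13:101680563-101768217, minus strand) encodes p85 alpha, the regulatory subunit that holds the catalytic subunit at the docking proteins. It had 28.3, 34.8 and 38.2 units as lowest, median and highest value in db/db Unx kidneys of 26 weeks, against 24.3, 25.3, 28.1, 26.9 and 30.7 units in db/m kidneys. The 3 lowest db/db Unx libraries lay below the highest db/m library, and the other db/db Unx libraries lay above it. The log2 difference was 0.30 ± 0.09, with a limma adjusted p of 0.00569. At 35 weeks Pik3r1 had 31.3, 36.1, 53.7, 39.5 and 40.7 units in db/db Unx kidneys, against 28.9, 26.9, 32.1, 30.5, 28.7 and 33.9 units in db/m kidneys. Replicate 3 was the highest db/db Unx library and replicate 1 lay among the db/m values. The difference was 0.39 ± 0.10, with a limma adjusted p of 0.00224. Without replicates 3, 5 and 6, which left only replicates 1 and 2, it was 0.16 ± 0.12 with an adjusted p of 0.420. The macrophage markers of the libraries left out were high, and their part in the Pik3r1 difference was not tested.

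Akt2 (chr7:27591552-27640826, plus strand), the AKT kinase most tied to insulin-stimulated glucose uptake, was called at neither age. It had 64.1, 69.1 and 83.5 units as lowest, median and highest value in db/db Unx kidneys of 26 weeks, against 84.2, 84.65, 64.5, 75.8 and 66.3 units in db/m kidneys. At 35 weeks it had 76.1, 69.2, 71.5, 70.8 and 76.6 units in db/db Unx kidneys, against 67.1, 74.5, 77.5, 61.7, 70.9 and 67.2 units in db/m kidneys. The groups overlapped at both ages. For Akt2 the log2 difference was -0.05 ± 0.07 at 26 weeks, with a 95% interval of -0.19 to 0.08, and 0.06 ± 0.08 at 35 weeks, with an interval of -0.09 to 0.22 (limma adjusted p = 0.579 at both ages).

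Of the FOXO factors, Foxo3 gave the largest difference of the 10 genes. The windows before the starts of Foxo1 (chr3:52268087-52268335, plus strand) and Foxo3 (chr10:42276756-42276945, minus strand) are shown because both genes rose at both ages. The letters are of RefSeq GRCm38.p6, 5′ to 3′ on the gene's strand, and capitals mark GC boxes (GGGCGG or its reverse complement CCGCCC).
Foxo1: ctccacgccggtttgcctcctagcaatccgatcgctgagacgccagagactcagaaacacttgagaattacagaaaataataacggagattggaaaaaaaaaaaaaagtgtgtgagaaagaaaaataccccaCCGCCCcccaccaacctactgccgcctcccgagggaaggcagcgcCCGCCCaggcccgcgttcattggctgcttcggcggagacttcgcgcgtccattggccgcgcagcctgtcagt
Foxo3: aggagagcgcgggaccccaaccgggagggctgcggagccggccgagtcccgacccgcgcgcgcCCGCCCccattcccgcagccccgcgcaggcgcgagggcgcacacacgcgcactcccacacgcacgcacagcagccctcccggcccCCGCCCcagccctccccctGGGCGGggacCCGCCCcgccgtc
The GC box occurred in 9 of the 14 windows of the genes described and in 35.7% of all RefSeq windows. In the stretches shown, G and C made up 55.8% of the Foxo1 bases and 81.6% of the Foxo3 bases. Neither stretch held the FOXO motif or the insulin response element.

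Foxo3 (gene at chr10:42181841-42276755), which drives stress-resistance, autophagy and atrophy genes when insulin signalling is low, had 21.4, 33.5 and 47.4 units as lowest, median and highest value in db/db Unx kidneys of 26 weeks, against 18.4, 17.2, 19.6, 15.8 and 20.7 units in db/m kidneys. Even the lowest db/db Unx library lay above the highest db/m library, a separation that 12.8% of all genes showed in one direction or the other (5.11% with db/db Unx higher). Foxo3 differed by 0.85 ± 0.12, or 1.81-fold on this scale, with a limma adjusted p of 3.77e-07. At 35 weeks Foxo3 had 28.7, 36.0, 37.8, 35.8 and 40.7 units in db/db Unx kidneys, against 14.2, 18.4, 14, 17.0, 14 and 14 units in db/m kidneys. The groups were again separate, with replicate 1 the lowest of the db/db Unx libraries. The difference was 1.18 ± 0.14, or 2.26-fold, with a limma adjusted p of 8.76e-09, and 1.04 ± 0.19 (adjusted p = 9.56e-05) without replicates 3, 5 and 6. Among the differences of all genes, that of Foxo3 stood at percentile 97.0 at 26 weeks and 98.0 at 35 weeks. The difference between the ages' differences was 0.33 ± 0.18, with a limma adjusted p of 0.466.

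Foxo1 (gene at chr3:52268336-52353221), the FOXO factor best known for driving gluconeogenic genes in liver, moved less. It had 56.9, 73.2 and 108.5 units as lowest, median and highest value in db/db Unx kidneys of 26 weeks, against 60.8, 58.1, 67.6, 59.5 and 62.2 units in db/m kidneys. The groups overlapped at the low end of the db/db Unx libraries. Foxo1 differed by 0.28 ± 0.09, with a limma adjusted p of 0.0186, and without db/m replicate 2 it was 0.26 with an adjusted p of 0.0521. At 35 weeks Foxo1 had 60.0, 94.2, 85.1, 86.5 and 86.3 units in db/db Unx kidneys, against 67.9, 64.0, 59.1, 58.8, 64.3 and 61.6 units in db/m kidneys. Replicate 1 lay among the db/m values, and the other four db/db Unx libraries lay above all db/m libraries. The difference was 0.38 ± 0.11, with a limma adjusted p of 0.00633, and 0.26 ± 0.15 with an adjusted p of 0.257 without replicates 3, 5 and 6.

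The mean ratio of the FOXO paralogs was also higher in db/db Unx than in db/m kidneys at both ages. The difference in this ratio was not tested. The ratio of Foxo3 to Foxo1 within a library was 0.438 ± 0.0400 in db/db Unx and 0.244 ± 0.0348 in db/m kidneys of 35 weeks (SD, n = 5 and 6), with ranges of 0.383 to 0.478 and 0.210 to 0.289. At 26 weeks it was 0.456 ± 0.0756 in db/db Unx and 0.298 ± 0.0247 in db/m kidneys (SD, n = 12 and 5), with ranges of 0.331 to 0.619 and 0.265 to 0.334 that met at their edges. As a ratio within a library it does not depend on how libraries were scaled.

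**Figure D3:**
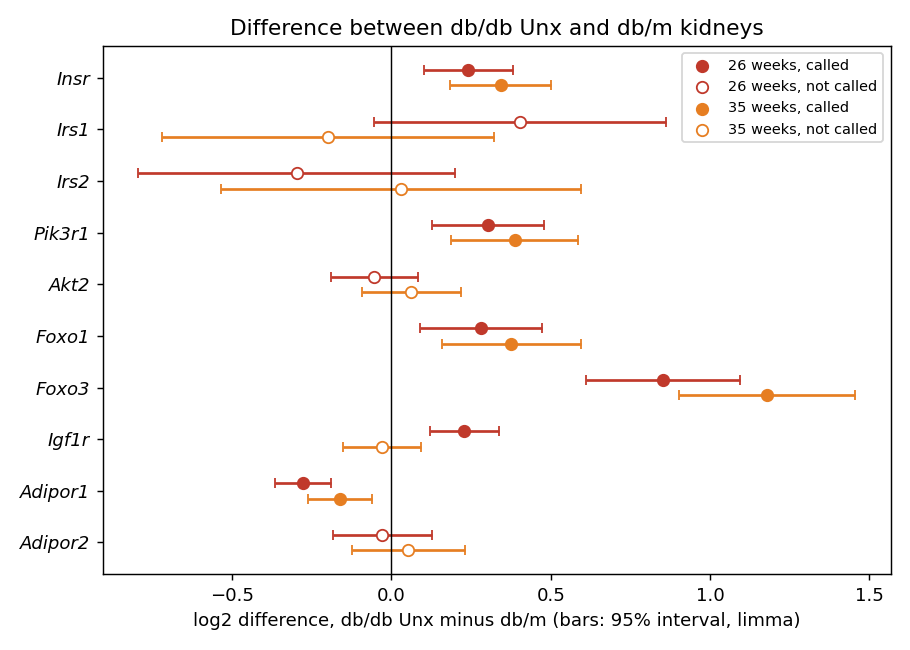
Log2 difference (horizontal axis, db/db Unx minus db/m) with its 95% interval from limma for each gene at 26 and 35 weeks; filled points were called and open points were not. Foxo3 lies farthest to the right, at 0.85 and 1.18, Adipor1 is the called gene left of 0, and the intervals of Irs1 and Irs2 are the widest.

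Of the adiponectin receptors, Adipor1 was called at both ages and Adipor2 at neither, and whether they differed from each other was not tested. Adipor1 (chr1:134415378-134433351, plus strand), the receptor linked mainly to AMPK, had 173, 189 and 200.4 units as lowest, median and highest value in db/db Unx kidneys of 26 weeks, against 224, 218, 221, 247 and 232 units in db/m kidneys. Every db/db Unx library lay below every db/m library, which 7.68% of all genes showed in that direction. Adipor1's log2 difference was -0.28 ± 0.04, with a limma adjusted p of 2.85e-06. At 35 weeks Adipor1 had 184, 199, 191, 187 and 194 units in db/db Unx kidneys, against 210.4, 240.2, 212, 200.01, 209.6 and 212 units in db/m kidneys. The groups were separate by less than 1 unit (10.3% of all genes had db/db Unx wholly lower), and db/m replicate 2 stood above the rest of its group. The difference was -0.16 ± 0.05, with a limma adjusted p of 0.0110. It was -0.07 with an adjusted p of 0.281 after quantile normalization, and -0.16 with an adjusted p of 0.122 without replicates 3, 5 and 6. At 26 weeks the call held under every setting tried.

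Adipor2 (chr6:119353150-119417704, minus strand), the receptor linked mainly to PPAR alpha, had 37.7, 45.2 and 55.8 units as lowest, median and highest value in db/db Unx kidneys of 26 weeks, against 44.5, 46.6, 40.1, 55.7 and 46.4 units in db/m kidneys. At 35 weeks it had 42.5, 49.4, 41.3, 47.3 and 44.6 units in db/db Unx kidneys, against 36.5, 45.6, 48.4, 46.1, 41.1 and 42.8 units in db/m kidneys. The groups overlapped nearly in full at both ages. For Adipor2 the log2 difference was -0.03 ± 0.08 at 26 weeks, with a 95% interval of -0.18 to 0.13, and 0.05 ± 0.09 at 35 weeks, with an interval of -0.12 to 0.23 (limma adjusted p = 0.811 and 0.694). The ratio of Adipor1 to Adipor2 was 4.15 ± 0.419 in db/db Unx and 4.93 ± 0.410 in db/m kidneys of 26 weeks, and 4.26 ± 0.272 in db/db Unx and 4.97 ± 0.542 in db/m kidneys of 35 weeks, with overlapping ranges. Adipoq, the gene of the ligand, was on the list of the adiponectin and AMPK axis, and its own values are not given here.

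Between the ages, 35 against 26 weeks, 1 of the 10 genes was called in db/db Unx kidneys, where 11.3% of all genes were (5.16% higher and 6.14% lower), and 0 in db/m kidneys, where 7.4% were. The called gene was Igf1r, at 125 ± 5.33 units at 35 weeks and 145 ± 10.2 units at 26 weeks in db/db Unx kidneys (SD, n = 5 and 12). Its log2 difference was -0.21 ± 0.05, with a limma adjusted p of 0.0103, and the ranges of the ages overlapped. In db/m kidneys the same age difference of Igf1r was 0.05 ± 0.06, with a limma adjusted p of 0.682. The fall in db/db Unx kidneys was -0.16 with an adjusted p of 0.684 without replicates 3, 5 and 6. Pik3r1 in db/db Unx kidneys differed by 0.24 ± 0.09 between 35 and 26 weeks, with a limma adjusted p of 0.0714. Without 35-week replicate 1 it passed, at 0.32 with an adjusted p of 0.0145. Without 35-week replicates 3, 5 and 6 the Pik3r1 difference was 0.0049, with an adjusted p of 0.997. In db/m kidneys no gene of the 10 had an unadjusted p below 0.05 in limma, the nearest being Irs1 at 0.52 ± 0.26 with an unadjusted p of 0.0505. For the interaction of disease and age 0 of the 10 genes were called, 1 (Igf1r) had an unadjusted p below 0.05, and 0.548% of all genes were called.

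How the 10 genes varied among kidneys of 1 group was read in the 12 db/db Unx libraries of 26 weeks, over all 45 pairs. With permutation p-values adjusted by Benjamini-Hochberg, 0 pairs passed by Pearson's r or by Spearman's rho, and 4 pairs had an unadjusted p below 0.05. Foxo1 and Foxo3 had r = 0.68 (permutation p = 0.0162, adjusted p = 0.365) and rho = 0.69 (permutation p = 0.0170, adjusted p = 0.382), and r = 0.53 without the 2 libraries farthest from the median of Foxo1. Insr and Adipor2 had r = -0.69 (permutation p = 0.0129, adjusted p = 0.365) and rho = -0.56 (permutation p = 0.0628, adjusted p = 0.471), and r = -0.72 without the 2 libraries farthest from the median of Insr. Insr and Foxo3 had r = 0.58 (permutation p = 0.0495, adjusted p = 0.498). Their rho was 0.71 (permutation p = 0.0120, adjusted p = 0.382). Irs1 and Adipor1 had r = -0.62 (permutation p = 0.0313, adjusted p = 0.470). The rho of that pair was -0.56 (permutation p = 0.0621, adjusted p = 0.471). Of the 45 pairs, 24 had r above 0.

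The genes most like each member across the 28 libraries, after each group's mean was taken off, were ranked by Pearson's r as a description. For Foxo3 they were Per1 (r = 0.75) and Ciart (r = 0.72), both genes of the circadian clock. Means here are given ± SD over the libraries of a group (n = 12 and 5 for db/db Unx and n = 5 and 6 for db/m at 26 and 35 weeks). Per1 averaged 14.6 ± 6.91 units in db/db Unx and 7.33 ± 1.52 units in db/m kidneys of 26 weeks, and 24.0 ± 7.44 units in db/db Unx and 7.43 ± 2.21 units in db/m kidneys of 35 weeks. Its log2 difference was 0.80 at 26 weeks (limma adjusted p = 0.0205) and 1.54 at 35 weeks (limma adjusted p = 0.000220). Ciart averaged 11.7 ± 5.00 units in db/db Unx and 17.3 ± 7.11 units in db/m kidneys of 26 weeks, and 10.4 ± 1.83 units in db/db Unx and 4.84 ± 3.02 units in db/m kidneys of 35 weeks. The log2 difference of Ciart was -0.53 at 26 weeks (limma adjusted p = 0.192), the opposite sign to Foxo3, and 1.11 at 35 weeks (limma adjusted p = 0.0157). For Foxo1 the first was Noct, a clock-regulated gene (r = 0.71), which differed by 1.5 at 26 weeks (limma adjusted p = 0.00149) and by 1.77 at 35 weeks (limma adjusted p = 0.00114). The second was Slc25a48 (r = 0.68), which had the opposite sign to Foxo1, with -0.53 at 26 weeks (limma adjusted p = 0.000246) and -0.28 at 35 weeks (limma adjusted p = 0.0907). The hour at which kidneys were taken is not given in the sources used here, and the part of these genes in the Foxo3 and Foxo1 differences was not tested. For Pik3r1 the nearest were Csf1 (r = 0.76), a growth factor of macrophages, and Pik3r5 (r = 0.69), another regulatory subunit of a phosphoinositide 3-kinase. Pik3r5 was near the floor, with group means between 0.581 and 1.40 units. Csf1 averaged 11.6 ± 6.92 units in db/db Unx and 4.17 ± 0.898 units in db/m kidneys of 35 weeks (log2 difference 1.15, limma adjusted p = 0.000141). At 26 weeks, where Pik3r1 was also called, Csf1 differed by 0.35 with a limma adjusted p of 0.184. Adipor1 was most like Tmed10 (r = 0.74) and Treh (r = 0.71), Irs2 most like Resf1 (r = 0.73) and Pdcd5 (r = 0.72), and Akt2 most like Nol10 (r = 0.74) and Abcf1 (r = 0.73). The nearest genes of Insr (Zfp513 and Neurl2), Igf1r (Lrrc66 and Emx2os), Irs1 (Zfp871 and Hif1a) and Adipor2 (Mpp2 and Traf5) had r between 0.66 and 0.68. For each member the 2 highest r were taken among the 13495 genes tested, with predicted genes left out. The highest of so many values can be high through the search alone. All points also share a library and its depth, so these values describe likeness only.

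Other genes of the pathway were read from 6 lists around the 10 genes, to be set against the 34.9% of all genes called at 26 weeks and the 32.3% at 35 weeks. Among receptors, ligands and binding proteins of insulin and IGF, 3 of 9 tested genes were higher and 4 lower in db/db Unx kidneys at 26 weeks, and 3 were higher and 2 lower at 35 weeks. Without db/m 26-week replicate 4 no gene of the list was called higher and 4 were called lower. The count called was 3 at 35 weeks without db/db Unx replicate 2, and 2 at 35 weeks without replicates 3, 5 and 6. Among the binding proteins of IGF, Igfbp5 and Igfbp3 fell. Igfbp5 averaged 134 ± 13 units in db/db Unx and 192 ± 15 units in db/m kidneys of 26 weeks, and 100.2 ± 15.7 units in db/db Unx and 193 ± 18.4 units in db/m kidneys of 35 weeks (log2 differences -0.52 and -0.95, limma adjusted p = 1.06e-06 and 5.02e-11). Igfbp3, the main carrier of IGF in blood, had differences of -0.66 and -0.50 (limma adjusted p = 4.69e-05 and 0.00426), the second with an adjusted p of 0.147 without 35-week replicates 3, 5 and 6. The abundant Igfbp7 differed by 0.15 and 0.17 (limma adjusted p = 0.00958 and 0.0115), and these calls were lost without db/m 26-week replicate 4 (adjusted p = 0.0529) and without db/db Unx 35-week replicate 2 (adjusted p = 0.0654). Igfbp2 was near the floor, at 1.61 ± 0.911 units in db/db Unx and 0.515 ± 0.975 units in db/m kidneys of 35 weeks (log2 difference 0.88, limma adjusted p = 0.0117), and its adjusted p was 0.0518 without db/db Unx replicate 5 and 0.177 without replicates 3, 5 and 6. The median log2 difference of the list was -0.18 at 26 weeks and 0.00 at 35 weeks.

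Of 16 phosphoinositide 3-kinase, AKT and docking genes tested, 2 were higher and 3 lower at 26 weeks and 2 were higher and 2 lower at 35 weeks, which is near or below the 34.9% and 32.3% of all genes called. Mtor, the kinase of both mTOR complexes, had the largest fall, at 105 ± 8.50 units in db/db Unx and 199 ± 25.0 units in db/m kidneys of 26 weeks. At 35 weeks it had 108 ± 7.78 units in db/db Unx and 213 ± 33.2 units in db/m kidneys, and its log2 differences were -0.91 and -0.96 (limma adjusted p = 3.26e-12 and 2.76e-11). Mapkap1, which encodes the mTOR complex subunit SIN1 needed for AKT phosphorylation, also fell, with differences of -0.27 at 26 weeks and -0.35 at 35 weeks (limma adjusted p = 0.00261 and 0.000638). Pik3r3, a paralog of Pik3r1, had 11.3 ± 3.20 units in db/db Unx and 5.30 ± 1.37 units in db/m kidneys of 26 weeks (log2 difference 0.95, limma adjusted p = 1.91e-05), and the difference was 0.62 at 35 weeks (limma adjusted p = 0.0103). Akt1, the paralog of Akt2, differed by 0.19 and 0.20 (limma adjusted p = 0.00778 and 0.0162), its adjusted p at 35 weeks was 0.0624 without db/db Unx replicate 5, and it differed by 0.13 at 35 weeks with an adjusted p of 0.360 without replicates 3, 5 and 6. Whether Akt1 and Akt2 differed from each other was not tested.

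Of 16 inhibitors of insulin signalling, 5 were higher and 1 lower at 26 weeks, and 6 were higher and 0 lower at 35 weeks. Counted in either direction, these lie near the shares of all genes (34.9% and 32.3%). By direction, 17.2% of all genes were higher and 17.7% lower at 26 weeks, and 15.9% and 16.4% at 35 weeks. Without replicates 3, 5 and 6 the count of the list at 35 weeks was 2. The median log2 difference of the list was 0.14 at 26 weeks and 0.22 at 35 weeks. Ptprf, a receptor tyrosine phosphatase that acts on the insulin receptor, had 212 ± 14.7 units in db/db Unx and 152 ± 8.37 units in db/m kidneys of 26 weeks (log2 difference 0.47, limma adjusted p = 2.80e-09), and the difference was 0.36 at 35 weeks (limma adjusted p = 1.01e-05). Grb14, an adaptor that blocks the receptor's kinase, differed by 0.54 and 0.49 (limma adjusted p = 0.000118 and 0.00168). Socs3, a cytokine-induced inhibitor, had 7.47 ± 4.82 units in db/db Unx and 1.86 ± 0.740 units in db/m kidneys of 35 weeks (log2 difference 1.43, limma adjusted p = 7.95e-05), and without replicates 3, 5 and 6 the Socs3 difference was 0.66 with an adjusted p of 0.150. Its difference of 0.62 at 26 weeks (limma adjusted p = 0.0440) was not called with a pseudocount of 10 (adjusted p = 0.170), after quantile normalization (adjusted p = 0.0900) or with neither trend nor robust moderation (adjusted p = 0.0572). Nor was it called without any one of db/m replicates 3, 4 and 5 or db/db Unx replicates 2, 4, 5, 6, 7, 10 and 11 (adjusted p between 0.0537 and 0.135). Pik3ip1, which binds and restrains the catalytic subunit, differed by 0.28 at 26 weeks (limma adjusted p = 0.131) and 0.73 at 35 weeks (limma adjusted p = 0.000561; 0.0607 without replicates 3, 5 and 6).

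Downstream, 0 of 9 genes of AKT substrates were called at 26 weeks (1 without db/m replicate 3 or without db/db Unx replicate 1, 5, 7 or 12; 2 had an unadjusted p below 0.05 in limma), and 2 were higher at 35 weeks. Of the genes called, Eif4ebp1 is a translation repressor under mTOR control, although the list counts it as an AKT substrate. Its difference was 0.53 (limma adjusted p = 0.000202). The other was Tbc1d4, which governs glucose transporter traffic (0.45, limma adjusted p = 0.0273). At 26 weeks Eif4ebp1 and Tbc1d4 differed by 0.23 (limma adjusted p = 0.0655) and 0.34 (limma adjusted p = 0.0586). The Tbc1d4 call at 35 weeks was lost after quantile normalization (adjusted p = 0.0699), without db/m replicate 1 or 6 (adjusted p = 0.0791 and 0.0727), and without db/db Unx replicate 5 (adjusted p = 0.0909) or replicates 3, 5 and 6 (adjusted p = 0.226).

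Of 19 FOXO target genes, 4 were higher and 2 lower at 26 weeks, and 8 were higher and 3 lower at 35 weeks. After quantile normalization the count at 26 weeks was 10, with 7 higher and 3 lower, and without replicates 3, 5 and 6 the count at 35 weeks was 6. Their median log2 difference was 0.07 at 26 weeks and 0.21 at 35 weeks. Pck1, the rate-limiting enzyme of gluconeogenesis, had 5420.4 ± 1168 units in db/db Unx and 2019 ± 314 units in db/m kidneys of 26 weeks (log2 difference 1.41, limma adjusted p = 5.69e-06), and the difference was 1.39 at 35 weeks (limma adjusted p = 4.48e-05). Ppargc1a, a coactivator of mitochondrial and gluconeogenic genes, differed by 0.37 and 0.51 (limma adjusted p = 9.87e-05 and 8.08e-06). Sesn3, a stress-induced regulator of mTOR, differed by 0.69 and 0.38 (limma adjusted p = 3.60e-06 and 0.0165), and its call at 35 weeks was lost without db/m replicate 3 (adjusted p = 0.0534) or db/db Unx replicate 2 (adjusted p = 0.0677). Trim63, a ubiquitin ligase of muscle atrophy, fell, with 9.18 ± 1.85 units in db/db Unx and 17.4 ± 2.75 units in db/m kidneys of 26 weeks (log2 difference -0.86, limma adjusted p = 5.73e-07), and a difference of -0.79 at 35 weeks (limma adjusted p = 2.56e-05). At 26 weeks the called targets split between both directions, and 6 of 19 called stands near the 34.9% of all genes. Of all genes, 32.3% were called at 35 weeks, where 11 of the targets were.

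Of 18 genes of the adiponectin and AMPK axis, 8 were higher and 1 lower at 26 weeks (34.9% of all genes called), and 4 were higher and 1 lower at 35 weeks (32.3% of all genes called), a count near that of all genes at 35 weeks. The count at 35 weeks was 3 without db/db Unx replicate 2 or 5, and 2 without replicates 3, 5 and 6. Prkag2, a regulatory subunit of AMPK, had 31.4 ± 5.30 units in db/db Unx and 19.3 ± 3.04 units in db/m kidneys of 26 weeks (log2 difference 0.67, limma adjusted p = 1.04e-05). Its difference was 0.39 at 35 weeks (limma adjusted p = 0.0187), a call lost without db/db Unx replicate 2 (adjusted p = 0.0802) or 5 (adjusted p = 0.0554), or without replicates 3, 5 and 6 (adjusted p = 0.127). Camkk2, a kinase upstream of AMPK, differed by 0.56 at 26 weeks (limma adjusted p = 2.03e-05) and by 0.31 at 35 weeks (limma adjusted p = 0.0329). The second Camkk2 call was lost after quantile normalization (adjusted p = 0.0575), without db/m 35-week replicate 1, 2, 3 or 6, and without db/db Unx 35-week replicate 2, 5 or 6 (adjusted p between 0.0523 and 0.0944), with an adjusted p of 0.299 without db/db Unx replicates 3, 5 and 6. Acacb, the mitochondrial acetyl-CoA carboxylase that AMPK inhibits, differed by 0.64 at 26 weeks (limma adjusted p = 0.000577) and by 0.30 at 35 weeks (limma adjusted p = 0.171; 0.0240 without db/m replicate 4). Asah1, the lysosomal acid ceramidase, fell, with differences of -0.34 and -0.39 (limma adjusted p = 3.25e-05 and 3.20e-05). The median log2 difference of the list was 0.20 at 26 weeks and 0.06 at 35 weeks.

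**Figure D4:**
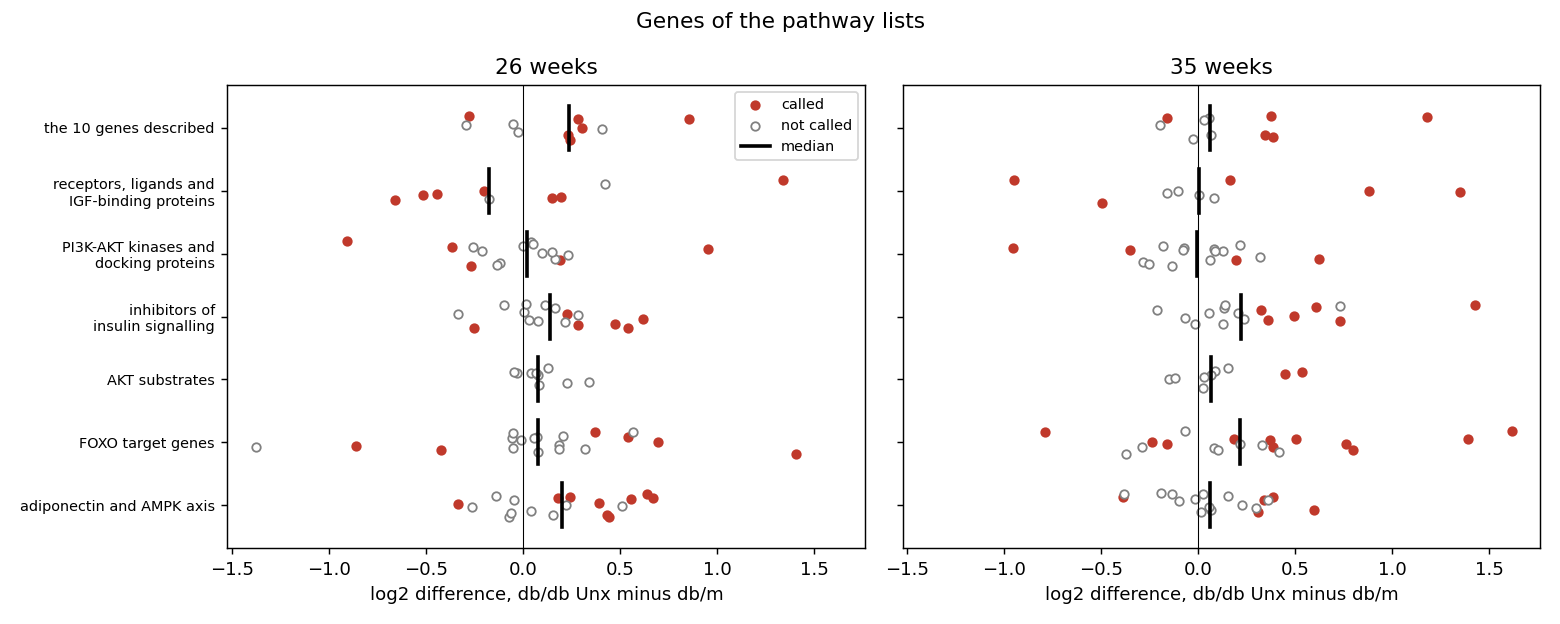
Log2 difference (horizontal axis, db/db Unx minus db/m) of each tested gene of the 10 genes described and the 6 pathway lists (rows) at 26 weeks (left) and 35 weeks (right); filled points were called, open points were not, and the black bar is the row's median. Each list but that of AKT substrates at 26 weeks holds called genes, most lists in both directions.

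Markers of several kidney cell types also differed between db/db Unx and db/m kidneys. The 7 markers of the distal convoluted and connecting tubule summed to 1319 to 1746 units in db/db Unx and 891 to 1023 units in db/m kidneys of 26 weeks, and to 1289 to 1799 and 902 to 1087 units in db/db Unx and db/m kidneys of 35 weeks. The 7 principal cell markers summed to 1034 to 1481 units in db/db Unx and 599 to 882 units in db/m kidneys of 26 weeks, and the 8 podocyte markers to 137.5 to 172 and 112 to 134 units in db/db Unx and db/m kidneys. At 35 weeks both sums overlapped, with 1054 to 1455 and 721 to 1301 units for principal cells and 138 to 225 and 125 to 162 units for podocytes in db/db Unx and db/m kidneys. At both ages 6 of the 7 distal convoluted and connecting tubule markers were called higher and 0 lower. Of the 7 principal cell markers, 5 were called higher at 26 weeks and 4 at 35 weeks, with 0 lower at either age. At both ages 3 of the 8 podocyte markers were called higher and 5 were not called. Marker counts are to be set against the 34.9% of all genes called at 26 weeks and the 32.3% at 35 weeks. Counted in either direction, those of podocytes and endothelium lie near these shares. Smooth muscle, pericyte and fibroblast markers were higher for 5 of 8 and lower for 0 at 26 weeks (3 and 0 at 35 weeks). Thick ascending limb markers were higher for 4 of 6 and lower for 1 at 26 weeks (1 and 2 at 35 weeks). Intercalated cell markers were higher for 2 of 5 and lower for 1 (0 and 2 at 35 weeks). Macrophage and monocyte markers were higher for 1 of 10 and lower for 2 (6 and 0 at 35 weeks). The proximal tubule, endothelial and T and B cell lists held more lower than higher calls. Of 12 proximal tubule markers, 8 were lower and 2 higher in db/db Unx kidneys at 26 weeks, and 6 were lower and 2 higher at 35 weeks. Of 8 endothelial markers, 3 were lower and 0 higher at 26 weeks, and 2 were lower and 1 higher at 35 weeks. Of 4 tested T and B cell markers, 2 were lower at each age. Of 10 fat cell markers 3 were in the table, led by Fabp4, which endothelium also makes, with a sum of 49.0 to 76.4 units in db/db Unx and 42.8 to 62.5 units in db/m kidneys of 26 weeks. None of the markers in these lists was at 0 throughout a group. The part of these cell types in the differences of Insr, Igf1r, Pik3r1, Foxo1, Foxo3 and Adipor1 was not tested.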

How the data were processed

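Kidney RNA-seq values of 28 libraries from the 4 groups were read from 1 table. DRAGEN and the build GRCm38 (mm10) were used per the submitters' processing notes. The sources used here do not give annotation, scaling or filters. The deposited signal values are expression values that the authors scaled per library: 87.3% to 90.3% of values up to 1.5 lay within 0.1 of a whole multiple of a library's step, taken as 1 read, and columns summed to 896873 to 1018934. Reads could not be recovered as whole numbers for nearly all genes, so no count model was run. A gene was kept if 5 or more libraries had a value of 1 or more, which left 13495 of 14845. All 10 genes passed. limma 3.58.1 (R 4.3.3) was fitted to log2(value + 1) with 1 mean per group, a mean-variance trend and robust moderation, with two-sided tests, after tests on simulated data. A log2 difference on this scale understates the change of low genes.

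The members and the gene lists were chosen with earlier results of these data known. Named genes were the 10 members, per pathway list up to 4 called genes, by smallest adjusted p at either age, and the 2 genes most like each member. Lengths and coordinates are from GENCODE M21 (GRCm38), and promoter letters from RefSeq GRCm38.p6. Correlations used 100000 resamples. Alternatives were pseudocounts, filters, normalizations, fit options, libraries left out and a replicate block.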

Additional observations from a re-analysis of the deposited data

Results flagged for a closer look

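Of 30 combinations of gene and group with 4 to 10 libraries, 2 held a library far from the others of its group, and chance gives about 1 in 20. Foxo1 in db/db Unx 35-week replicate 1 was 60.0 units, the lowest of its group, and the nearest library had 85.1 units, a gap of 0.734 of the group's range. Without that library the Foxo1 difference at 35 weeks was 0.49 ± 0.10, with a limma adjusted p of 0.000250. Adipor1 in db/m intact 35-week replicate 2 was 240.2 units, the highest of its group, and the nearest library had 212 units, a gap of 0.700 of the range. Without that library the Adipor1 difference at 35 weeks was -0.13 ± 0.05, with a limma adjusted p of 0.0459.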

How the results depend on the processing

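Of the 10 genes, 5 to 6 were called at 26 weeks and 5 at 35 weeks when each library was left out in turn, 1 to 2 between the ages in db/db Unx kidneys, and 0 between the ages in db/m kidneys and for the interaction. Without db/db Unx 35-week replicates 3, 5 and 6 together, 2 were called at 35 weeks and 0 between the ages in db/db Unx kidneys. With library weights the age comparison in db/db Unx kidneys called 2. The cause of these changes was not tested. No difference of a member that was called reversed. In the order of levels per length, 3 genes kept their place with the longest transcript. Same-numbered libraries did not deviate together (correlations of their deviations from -0.13 to 0.08), so no pairing by number showed over all genes. What the numbers stand for is not given in the labels. With a replicate block the counts were 6 at 26 weeks, 5 at 35 weeks, 0 for the interaction, and 0 between the ages in db/db Unx kidneys, where Igf1r had an adjusted p of 0.0604 at the same difference; this block across ages was chosen after seeing the data. The block took the count of phosphoinositide 3-kinase, AKT and docking genes called at 26 weeks to 2 in place of 5. Among the named genes of the lists it ended the calls of Akt1 at both ages (adjusted p = 0.0798 and 0.0600), and of Mapkap1 (0.0550) and Socs3 (0.123) at 26 weeks, and it called Acacb at 35 weeks (0.0493). Over all genes, leaving out replicates 3, 5 and 6 gave 2407 calls at 35 weeks in place of 4357 and 8 between the ages in db/db Unx kidneys in place of 1526, and 0 in place of 74 for the interaction, with fewer samples in the fit. The age calls were 483 with the block and 2185 with library weights, and those for the interaction 3 and 178, and 41 with neither trend nor robust moderation. Among the 10 genes the values of Irs1 were the lowest, at 0.796 to 5.68 units.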
